A study of Rattus norvegicus with 16 samples.

Results

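The cyclin-dependent kinase inhibitor genes Cdkn2b, Cdkn2a, Cdkn2c, Cdkn1a, Cdkn1b, Cdkn1c and Cdkn3 were followed in rat thyroid cells after Pax8 silencing. Members were the array probes whose transcript accession belonged to 1 of these 7 symbols in the rat RefSeq table. That gave 11 probes for 6 genes, of 8899 named genes and 41012 probes in all. No probe carried a Cdkn3 accession of that table, so this gene was not analysed here. Pax8 is a paired-box transcription factor of thyroid follicular cells, and PCCl3 is a rat thyroid follicular cell line grown with TSH, insulin and hydrocortisone in every group. The siPax8 and siScramble cells received Pax8 siRNA or a scrambled siRNA at 10 ng/ml with Lipofectamine, and RNA was taken at 48 hours. Cells labelled wild type are the other control, which the study's methods describe at 1 point as treated with lipofectamine. All cells come from 1 line.

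The series held 16 2-colour arrays, 8 of siPax8 against wild type and 8 of siPax8 against siScramble. Each comparison had 4 replicates, each hybridised in both dye orientations, and nothing in the labels beyond the words biological replicate says whether these were separate cultures. Ratios are given as log2 of siPax8 over control, and a replicate's value averages its 2 dye orientations. The study's own table runs the other way, control over siPax8. A probe was called where its limma adjusted p over all probes was under 0.005. Between 52.0% and 60.8% of spots were well above background in a channel. The Pax8 probe itself read -0.84, -0.57, -0.59 and -0.26 over wild type (mean -0.56 ± 0.24, SD, n = 4, limma adjusted p = 0.000472), and -0.58, -0.29, -0.12 and -0.01 over siScramble (mean -0.25 ± 0.25, adjusted p = 0.143). Of 13 thyroid follicular markers, 12 were well above background on every array in both channels. Of 10 markers of fibroblasts, endothelium, leukocytes and C cells, 5 were so on none, the fibroblast and endothelial markers Col3a1, Dcn, Lum, Pdgfrb and Pecam1. Calca, a C cell gene, Cd68, a macrophage gene, and Col1a2 were the markers of other cells seen on every array. Chga, another C cell marker, was well above background on 8 arrays in the control channel and on 6 in the siPax8 channel. Kdr, an endothelial marker, was so on 1 array in the control channel alone. Of these 10, Cd68 alone was called, at 0.30 over wild type (adjusted p = 0.000797), and its part in the results below was not tested. Of the thyroid markers 10 were lower and 1 higher over wild type, and 1 was lower over siScramble.

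Cyclin-dependent kinases drive the cell through G1 and into DNA replication, and these inhibitors hold them back. The INK4 proteins, from Cdkn2a (p16), Cdkn2b (p15) and Cdkn2c (p18), bind Cdk4 and Cdk6 and keep D-type cyclins from activating them. The Cip/Kip proteins, from Cdkn1a (p21), Cdkn1b (p27) and Cdkn1c (p57), bind cyclin and kinase together, and their main targets include the Cdk2 complexes. Cdkn3 encodes a phosphatase that acts on Cdk2. The p27 protein is known for building up in resting cells.

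The inhibitors did not move as one group. Over wild type, 5 of the 11 member probes were called, 2 higher (Cdkn2b and 1 probe of Cdkn1b) and 3 lower (Cdkn2c and both probes of Cdkn1a). Of all probes, 15.3% were called in this comparison, 7.04% higher and 8.23% lower. Over siScramble, 1 of the 11 was called, Cdkn2b, which was higher, against 2.11% of all probes, 1.22% higher and 0.897% lower. Cdkn2b was thus the 1 member called in both comparisons. The median over the 11 probes was -0.03 over wild type and -8.85e-05 over siScramble, beside -0.0036 and -0.0037 for all probes. Both medians are the values of Cdkn1c A_44_P223978, a probe not well above background on any array. Cdkn1c has 4 of the 11 probes, so these medians say little about the group. In size, without sign, the median was 0.157 and 0.0871, beside 0.0442 and 0.0323 for all probes. Both member values are those of Cdkn1a A_44_P515275. All probes include those near background, and no median was taken over the probes well above it. Reduced to genes, with every probe called in 1 direction, 3 of 6 members were called over wild type and 1 of 6 over siScramble, where 16.7% (7.26% higher, 9.46% lower) and 2.99% (1.67% higher, 1.31% lower) of 8899 named genes were.

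**Figure D1:**
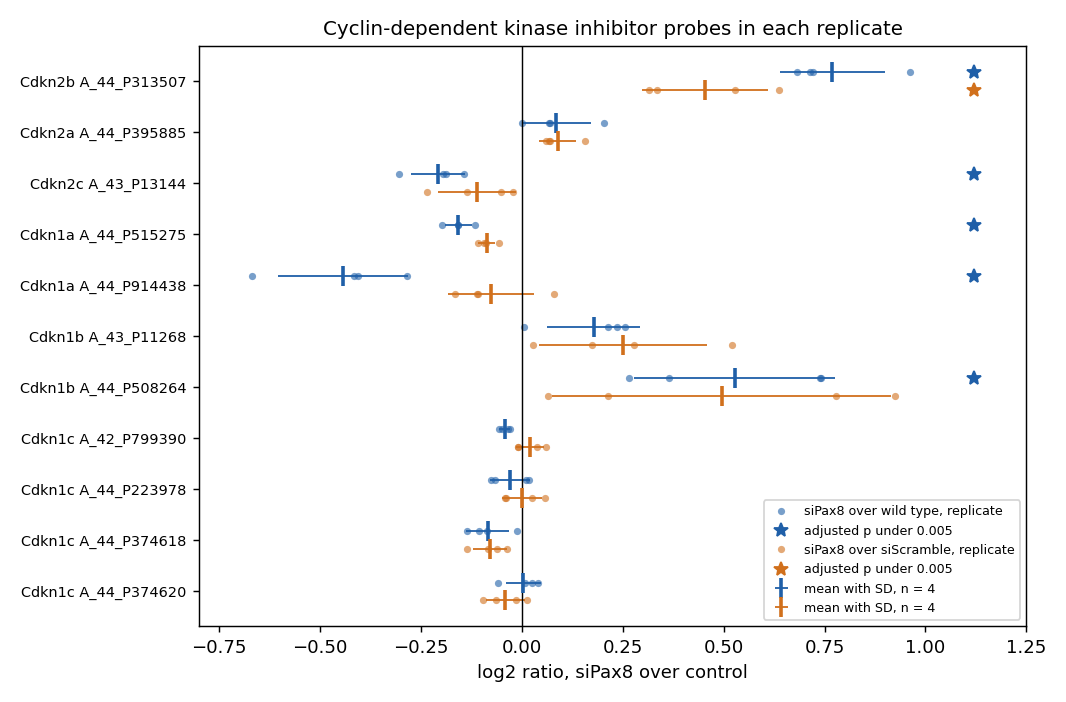
Log2 ratio of siPax8 over control (x axis) for each of the 11 member probes (rows) in the 4 replicates of both comparisons, with the mean and SD; stars mark adjusted p under 0.005. Cdkn2b lies above 0 in all 8 values, Cdkn1a A_44_P914438 lies below 0 in all 4 values over wild type and near 0 over siScramble, and the Cdkn1c probes lie close to 0.

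Cdkn2b and Cdkn2a are neighbours of the INK4 locus, 1 called in both comparisons and the other in neither, so their start regions are shown. The sequences, 250 bases before to 50 after the start that RefSeq gives on GRCr8, lie on the minus strand at chr5:109134806-109135105 (Cdkn2b) and chr5:109107907-109108206 (Cdkn2a). Capitals mark matches on either strand to the GC box GGGCGG, the cyclic AMP response element TGACGTCA, the Smad box CAGAC, the AP-1 site TGANTCA, the E2F site TTTNGCGC, the CCAAT box CCAAT or the letters GCGTGAC, which resemble a paired-domain core.
Cdkn2b: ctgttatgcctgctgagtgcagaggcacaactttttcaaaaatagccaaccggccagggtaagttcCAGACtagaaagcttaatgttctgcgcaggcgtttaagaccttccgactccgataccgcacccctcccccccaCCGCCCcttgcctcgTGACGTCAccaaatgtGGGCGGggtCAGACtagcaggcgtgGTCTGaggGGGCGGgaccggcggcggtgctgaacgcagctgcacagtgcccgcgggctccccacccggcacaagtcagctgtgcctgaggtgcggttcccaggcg
Cdkn2a: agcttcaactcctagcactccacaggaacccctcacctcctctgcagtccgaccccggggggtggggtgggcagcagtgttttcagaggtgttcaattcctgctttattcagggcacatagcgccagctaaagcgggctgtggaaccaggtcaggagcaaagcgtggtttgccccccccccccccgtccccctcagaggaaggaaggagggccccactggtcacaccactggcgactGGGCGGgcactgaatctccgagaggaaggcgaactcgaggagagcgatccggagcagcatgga
The Cdkn2b window held 3 GC boxes, 3 Smad boxes and 1 cyclic AMP response element. The Cdkn2a window held 1 GC box and none of the others. Over 33469 windows of the same length, 33.1% held a GC box, 50.1% a Smad box and 1.83% a cyclic AMP response element. Among the 6 members with a window in the table, the cyclic AMP response element was found in that of Cdkn2b alone, and a GC box in 5. Such matches describe letters and are no evidence of binding.

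Cdkn2b, the p15 inhibitor of Cdk4 and Cdk6, rose in both comparisons and had the highest mean of the member probes over wild type. Its probe A_44_P313507 (NM_130812) read 0.72, 0.96, 0.71 and 0.68 over wild type in replicates 1 to 4. Over siScramble it read 0.64, 0.53, 0.33 and 0.32. All 8 values were above 0, and replicate 2 stood highest over wild type. The means were 0.77 ± 0.13 (170% of wild type, adjusted p = 5.17e-06) and 0.45 ± 0.16 (137% of siScramble, adjusted p = 0.00442; limma, n = 4 each). Each of the 16 arrays gave a value above 0, from 0.60 to 1.03 over wild type and from 0.08 to 0.75 over siScramble. Within the 4 slides, each with 1 array of every comparison and orientation, the mean ran from 0.64 to 0.91 over wild type and from 0.30 to 0.65 over siScramble. The call over siScramble lay just inside the threshold. It was lost without any 1 replicate, with means of 0.39 without replicate 1, 0.43 without 2, 0.49 without 3 and 0.50 without 4 and adjusted p from 0.0074 to 0.034, whereas the call over wild type was kept each time.

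In intensity, the Cdkn2b probe ran in the order wild type, siScramble, siPax8. Its log2 normalised intensity was 8.85 ± 0.11 in wild type and 9.19 ± 0.15 in siScramble. In siPax8 it was 9.61 ± 0.05 on the wild type arrays and 9.64 ± 0.07 on the siScramble arrays. The 4 wild type replicates (8.70 to 8.96) did not overlap the 4 siScramble replicates (at most 9.37). Nor did these overlap the siPax8 replicates (9.54 to 9.70). The gap between the highest wild type and the lowest siScramble replicate was smaller than the SD of either group. How many of all probes separate in this way was not counted. Wild type and siScramble RNA did not share an array, so that order rests on the normalisation between arrays. The difference between the comparisons, over wild type minus over siScramble, was 0.32 (95% interval 0.14 to 0.50, adjusted p = 0.0320), which missed the threshold with unpaired replicates. Same-numbered siPax8 channels of the comparisons deviated together, though the ratios of replicate 3 did not, and with the replicate number as a paired block the same 0.32 was called (adjusted p = 0.00484).

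**Figure D2:**
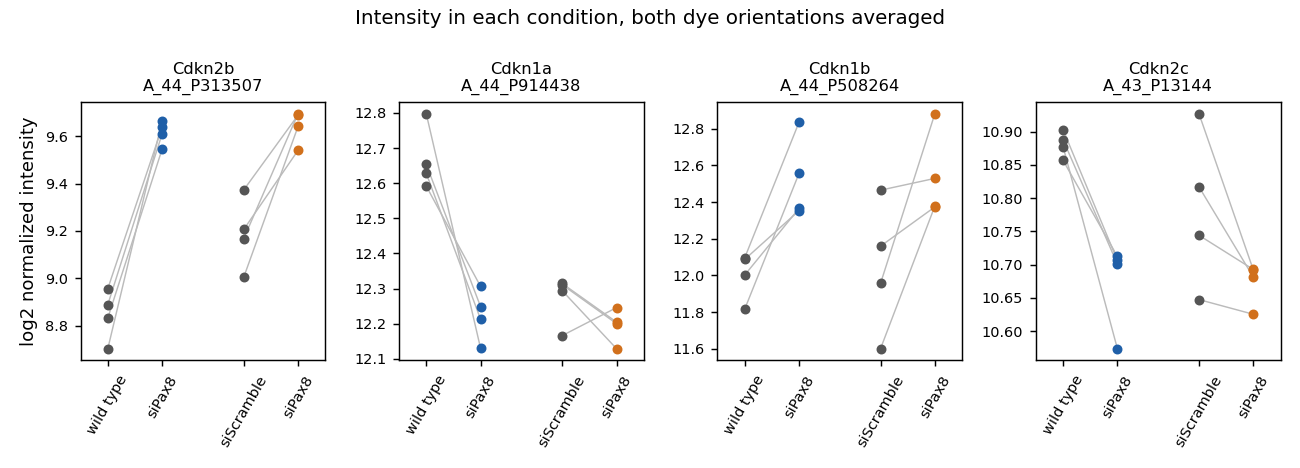
Log2 normalised intensity (y axis, own scale in each panel) of 4 member probes in wild type, siScramble and siPax8, each point 1 replicate with both dye orientations averaged and grey lines joining the channels of the same arrays. Cdkn2b rises from about 8.85 in wild type to 9.61 in siPax8 with siScramble at 9.19 between them, whereas Cdkn1a A_44_P914438 stands at 12.67 in wild type and at 12.20 to 12.27 in the other groups.

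Cdkn2a, whose products are the INK4 protein p16 and, in another reading frame, Arf, was close to the background of the arrays. Its probe A_44_P395885 (NM_031550) was well above background on 7 of 8 arrays in wild type, on 5 of 8 in siScramble and on 15 of 16 in siPax8. It read 0.07, 0.07, 0.00 and 0.20 over wild type and 0.16, 0.07, 0.06 and 0.07 over siScramble. These 8 values were all above 0 and small, with means of 0.09 ± 0.08 (adjusted p = 0.140) and 0.09 ± 0.05 (adjusted p = 0.117), and no call was made. On GRCr8, the protein-coding genes next to this pair include Mtap and Dmrta1, neither of which had a probe named through the table.

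Cdkn2c, the p18 inhibitor, went the other way from Cdkn2b over wild type. Its probe A_43_P13144 (NM_131902) read -0.30, -0.14, -0.20 and -0.19 over wild type, a fall to 86.6% (mean -0.21 ± 0.07, adjusted p = 0.00162). Over siScramble the values were -0.02, -0.05, -0.24 and -0.14 (mean -0.11 ± 0.10, adjusted p = 0.158). With the dyes averaged, values in both comparisons were all below 0, and the ranges overlapped. Over siScramble the mean was -0.22 with siPax8 in Cy5 and -0.0054 in Cy3, where 3 of 4 arrays were above 0. Over wild type the mean was -0.25 in Cy5 and -0.17 in Cy3, with no array above 0. The difference between the comparisons was -0.10 (95% interval -0.22 to 0.02, adjusted p = 0.344). Log2 intensity was 10.88 ± 0.02 in wild type, 10.78 ± 0.12 in siScramble and 10.67 in siPax8 on both sets of arrays. The call over wild type was lost without replicate 2 (-0.23, adjusted p = 0.00518), without replicate 3 (-0.21, adjusted p = 0.0121) and without replicate 4 (-0.22, adjusted p = 0.00873).

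Among the Cip/Kip genes, Cdkn1a was lower over wild type and was not called over siScramble. Cdkn1a encodes p21, which is induced by DNA damage. Probe A_44_P914438 (NM_080782), printed on 10 spots of each array, read -0.67, -0.42, -0.40 and -0.29 over wild type, a fall to 73.5% (mean -0.44 ± 0.16, adjusted p = 0.000318). Over siScramble it read -0.17, -0.11, -0.11 and 0.08 (mean -0.08 ± 0.11, adjusted p = 0.401). Replicate 1 was the lowest in both comparisons. The 10 spots of an array differed little, with an SD over spots of 0.0287 to 0.103 on the wild type arrays. In intensity, siScramble (12.27 ± 0.07) stood near siPax8 (12.22 ± 0.07 and 12.20 ± 0.05), and wild type (12.67 ± 0.09) stood above all of them. The difference between the comparisons was -0.37 (95% interval -0.54 to -0.19). It missed the threshold with unpaired replicates (adjusted p = 0.0131) and was called with the paired block (adjusted p = 0.000627).

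A second Cdkn1a probe, A_44_P515275 with the same accession, gave smaller values that depended on the dye. It read -0.12, -0.16, -0.16 and -0.20 over wild type (mean -0.16 ± 0.03, adjusted p = 0.00336) and -0.06, -0.09, -0.09 and -0.11 over siScramble (mean -0.09 ± 0.02, adjusted p = 0.0837). With siPax8 in Cy3 the mean was -0.31 over wild type and -0.23 over siScramble, with all 8 arrays below 0. With siPax8 in Cy5 it was -0.01 and 0.05, with 5 of 8 arrays above 0. Its call over wild type, with the dyes averaged, was lost without replicates 2, 3 or 4, at means of -0.16, -0.16 and -0.14. It was also lost in a limma fit of the 8 single arrays with the replicate number as a block and no dye term (adjusted p = 0.0223). The first probe showed no such split over wild type, with -0.42 in Cy5 and -0.47 in Cy3.

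Cdkn1b, which encodes p27, read above 0 on both of its probes, by unequal amounts. Probe A_44_P508264 (NM_031762) read 0.74, 0.36, 0.27 and 0.74 over wild type (mean 0.53 ± 0.25, 144% of wild type, adjusted p = 0.000909). Over siScramble it read 0.06, 0.21, 0.78 and 0.92 (mean 0.50 ± 0.42, adjusted p = 0.0809). The means of the comparisons were alike and the spread over siScramble was the widest of any member probe, with replicates 3 and 4 high and 1 and 2 low. In log2 intensity, siPax8 stood at 12.53 ± 0.22 and 12.54 ± 0.24, and siScramble ran from 11.60 to 12.46, with replicate 3 the lowest and replicate 1 the highest. Over siScramble the mean was 0.70 with siPax8 in Cy5 and 0.29 in Cy3, and over wild type it was 0.50 and 0.55. Without replicate 4 the call over wild type was lost (0.46, adjusted p = 0.00587).

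The other Cdkn1b probe, A_43_P11268 with the same accession and 10 spots, was not called. It read 0.26, 0.21, 0.01 and 0.24 over wild type (mean 0.18 ± 0.12, adjusted p = 0.0144) and 0.28, 0.17, 0.03 and 0.52 over siScramble (mean 0.25 ± 0.21, adjusted p = 0.0869). Replicate 3 was the lowest in both comparisons on this probe, and without it the value over wild type was called (0.24, adjusted p = 0.00343). Over siScramble replicate 3 was among the high ones on A_44_P508264, so the 2 probes did not rank the replicates alike. With siPax8 in Cy5 the mean over wild type was 0.34 and in Cy3 it was 0.02. Spots of this probe on an array had an SD of at most 0.126, under the SD of 0.21 between replicates over siScramble. The difference between the comparisons was -0.07 (95% interval -0.28 to 0.14) on this probe and 0.03 (-0.38 to 0.44) on A_44_P508264, neither of which was called.

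**Figure D3:**
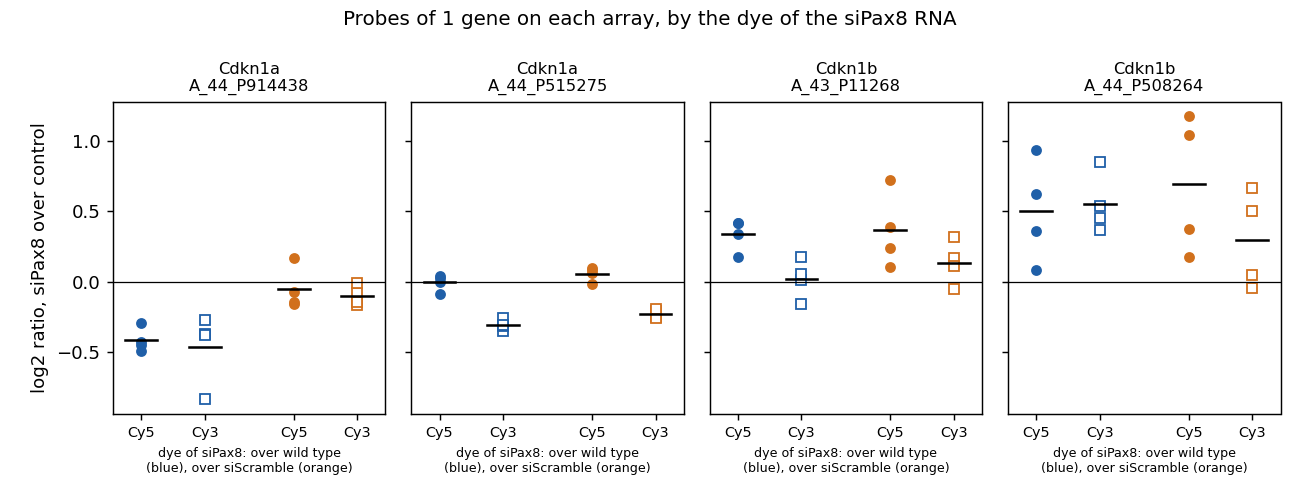
Log2 ratio of siPax8 over control (y axis) on each array for the 2 probes of Cdkn1a and the 2 of Cdkn1b, split by the dye that carried siPax8 RNA (filled circles Cy5, open squares Cy3); black bars are means of 4 arrays. Over wild type, A_44_P515275 and A_43_P11268 differ between the orientations (means -0.01 and -0.31, 0.34 and 0.02 in Cy5 and Cy3). There A_44_P914438 (-0.42 and -0.47) and A_44_P508264 (0.50 and 0.55) lie closer together. Over siScramble A_44_P508264 has means of 0.70 in Cy5 and 0.29 in Cy3.

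Cdkn1c, the p57 inhibitor and an imprinted gene in mammals, had 4 probes and no call. Probes A_44_P374618 and A_44_P374620 carry NM_182735, and A_42_P799390 and A_44_P223978 carry NM_001033757. A_44_P374618 was well above background on all arrays in both channels and read from -0.14 to -0.01 over wild type (mean -0.08 ± 0.05, adjusted p = 0.0862). Over siScramble it read from -0.14 to -0.04 (mean -0.08 ± 0.04, adjusted p = 0.148), so that all 8 values were below 0. A_44_P374620 was well above background on 6 of 8 arrays in wild type and had means of 0.00 and -0.04. A_44_P223978 was not well above background on any array and A_42_P799390 on 1 array in wild type and 1 in siPax8, so these probes give no fold. No spot of a member was saturated, and 9 of 464 member spots over the arrays were left out as outliers.

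For the difference between the comparisons, limma called 0 of 11 member probes, beside 3.44% of all probes (1.65% higher, 1.78% lower), and 2 had an unadjusted p under 0.05. With the paired block, 2 were called, Cdkn2b and Cdkn1a A_44_P914438. Same-numbered siPax8 samples of the comparisons may share RNA or cultures, which the labels do not say, so their values may not be independent.

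Genes around the inhibitors were taken as 8 lists with 79 measured genes. Over wild type 30 were called, 14 higher and 16 lower (38.0%), and over siScramble 6 were called, 3 higher and 3 lower (7.59%; 11 genes with the replicate block), where 16.7% and 2.99% of all named genes were. The difference between the comparisons was called for 5 of the 79, Gadd45a and Tgfb2 higher and Zmat3, Ccna1 (-0.25) and Id1 (-0.33) lower, where 4.56% of named genes were (1.78% higher, 2.79% lower). Genes of these lists given with no SD were named after their values were seen. Gene values are means over the probes of a gene.

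Of 5 other genes with related names, 2 were higher over wild type and none was called over siScramble. These were Cdkn2d, Cdkn2aip, Cdkn2aipnl, Cdk5rap1 and Cdk5rap3, of which Cdkn2d alone belongs to the INK4 or Cip/Kip families. Cdkn2d, the p19 member of INK4, read 0.34, 0.22, 0.27 and 0.09 over wild type (adjusted p = 0.00267) and -0.01, 0.08, -0.09 and -0.41 over siScramble (adjusted p = 0.539). The difference of 0.33 was not called with unpaired replicates (adjusted p = 0.0469) and was called with the paired block (adjusted p = 0.00332). Cdk5rap1 read 0.17 ± 0.06 over wild type and -0.02 ± 0.03 over siScramble. The calls of Cdkn2d and of Cdk5rap1 over wild type each held under 12 of 18 processing settings, and that of Cdkn2d was lost without replicate 2 or 3 (adjusted p = 0.0154 and 0.0227).

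Of 12 kinases and cyclins, 2 were higher and 4 lower over wild type, and 3 were lower over siScramble. Ccnd1, the cyclin D1 partner of Cdk4, was 0.36 ± 0.05 over wild type, called on both probes, and 0.39 ± 0.09 over siScramble, called on 1 of its 2 probes (adjusted p = 0.00313 and 0.00857). Ccnb1 and Ccnb2, the B cyclins that act with Cdk1 at mitosis, were lower in both comparisons. Ccnb2 read -0.39 ± 0.05 and -0.37 ± 0.10, and Ccnb1 read -0.28 ± 0.06 and -0.33 ± 0.06. Over siScramble each of these calls held under 11 of 18 settings, that of Ccnb1 in none and that of Ccnb2 in 1 of the 4 that leave out a replicate. Over wild type Ccnb2 was called under 17 of 18 and Ccnb1 under 8. The Ccnb1 probe A_44_P534089 was -0.16 over wild type, but 0.02 with siPax8 in Cy5 alone and -0.34 in Cy3 alone. The other calls over wild type were Cdk1 (-0.28) and Ccna1 (-0.30), which were lower, and Mnat1 (0.20), which was higher, and over siScramble Ccna2 (-0.30), which was lower. Cdk2 and Cdk4, the kinases that these inhibitors bind, were -0.18 and -0.19 over wild type and -0.01 and -0.05 over siScramble. Neither was called in either comparison. Over wild type Cdk4 read -0.53 in replicate 1 and -0.05, -0.14 and -0.03 in replicates 2 to 4.

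Of 12 genes under E2F control, 5 were lower and 1 was higher over wild type, with a list median of -0.17. Over siScramble 1 was called, which was higher, and the median was -0.18. Birc5, which encodes survivin, read -0.67 ± 0.12 and -0.34 ± 0.12 (adjusted p = 8.33e-06 and 0.00547). Rrm2, the small subunit of ribonucleotide reductase, read -0.59 ± 0.12 and -0.25 ± 0.13. Tyms (-0.18) and Plk1 (-0.31) were also lower over wild type. Aurkb, a mitotic kinase, went against the list, at 0.31 ± 0.11 and 0.36 ± 0.04, called higher in both comparisons. Tfdp1, the DNA-binding partner of E2F proteins, was 1 of 2 measured genes of the pocket protein and E2F list. It was -0.35 ± 0.10 over wild type. Over siScramble it was -0.19 ± 0.01, called on 1 of its 2 probes (adjusted p = 0.00261 and 0.0192).

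Of 16 genes on the route from TGF-beta to Cdkn2b, 3 were higher over wild type and 1 over siScramble. TGF-beta is a well-known inducer of Cdkn2b through Smad proteins, and Myc represses it with Zbtb17. Tgfb3, a ligand, read 0.75, 0.84, 0.64 and 0.75 over wild type and 0.45, 0.51, 0.42 and 0.58 over siScramble (adjusted p = 1.44e-06 and 0.000402). Its 8 values were all above 0. Tgfb2, another ligand, read 0.54 ± 0.18 over wild type and -0.05 ± 0.06 over siScramble, a difference of 0.59 that was itself called (adjusted p = 0.000821). Myc read 0.24 over wild type, called, and 0.23 over siScramble, not called. The receptors Tgfbr1 and Tgfbr2, Smad2, Smad3, Smad4 and Zbtb17 were not called in either comparison, with values between -0.10 and 0.08, though 1 of the 3 Tgfbr1 probes passed over wild type.

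Of 15 genes listed for the stress and DNA damage response in which Cdkn1a takes part, 4 were higher and 5 lower over wild type, and 1 was higher over siScramble. Gadd45a, a DNA damage response gene, read 1.76, 1.69, 1.71 and 1.79 over wild type and 1.07, 1.01, 0.90 and 0.93 over siScramble (adjusted p = 7.42e-09 and 4.94e-05). The difference of 0.76 was called (adjusted p = 5.47e-06). Zmat3 read -0.57 ± 0.09 over wild type and -0.16 ± 0.14 over siScramble, and that difference of -0.41 was called as well (adjusted p = 0.00361). The other calls over wild type were Gadd45g (0.36), Bbc3 (0.50) and Phlda3 (0.33), which were higher, and Ccng1 (-0.51), Btg2 (-0.34), Fas (-0.28) and Plk2 (-0.21), which were lower.

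Of 7 genes of inhibitor protein turnover, Usp19, a deubiquitinase, was the 1 call, at 0.16 ± 0.04 over wild type. Over siScramble it read 0.20 ± 0.05, with all 4 replicates above 0, and was not called (adjusted p = 0.00802). Of 10 genes listed as regulators of the INK4 locus, Tbx3, a T-box repressor, was higher over wild type (0.43 ± 0.11) and Ring1, of the Polycomb complex, was lower (-0.17 ± 0.04). Over siScramble Tbx3 read 0.10 ± 0.34 and Ring1 -0.02 ± 0.11. Neither list had a call over siScramble.

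**Figure D4:**
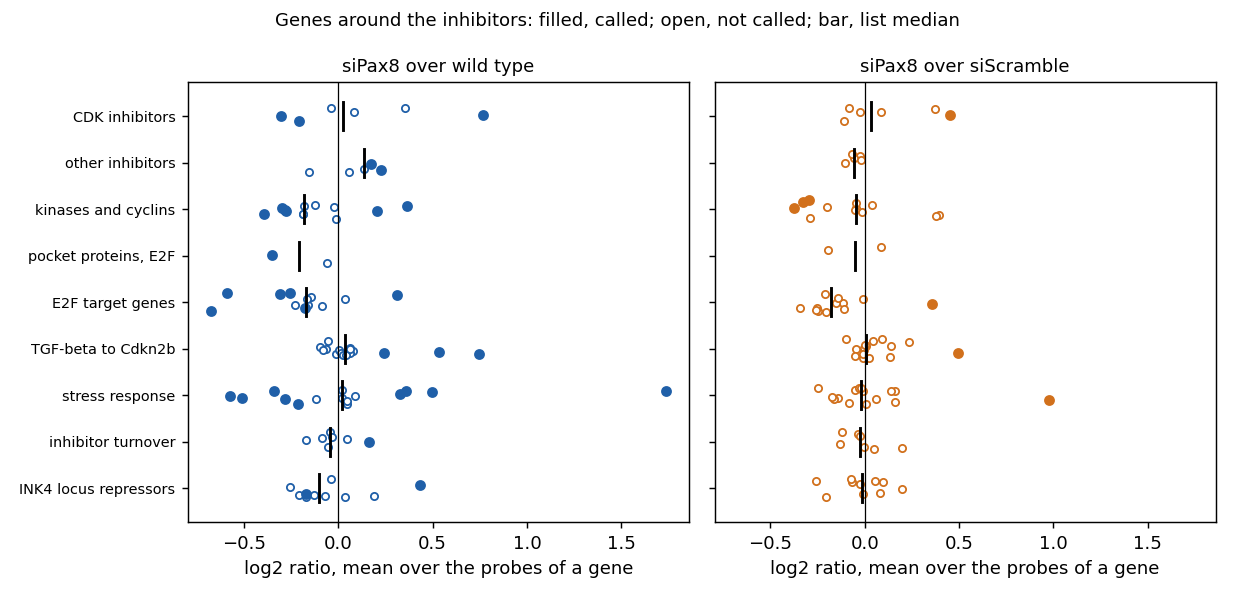
Log2 ratio of siPax8 over wild type (left) and over siScramble (right) on the x axis for each measured gene, a mean over its probes, in the inhibitor members and the 8 lists (rows); filled points have every probe called in 1 direction and black bars are list medians. Called genes lie on both sides of 0 over wild type, and Gadd45a lies farthest out in both panels (1.74 and 0.98). Over siScramble 6 genes of the 8 lists are called. The row named other inhibitors holds genes with related names, of which Cdkn2d alone belongs to INK4 or Cip/Kip.

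The genes whose log2 ratios over the 16 arrays ran most like those of Cdkn2b were sought among 310 named probes called in both comparisons, whose median Pearson r with it was 0.08. The 5 most positive were Grn (r = 0.88), Ssx2ip (0.85), Cytip (0.82), RT1-CE1 (0.82) and Pdia6 (0.78). The 5 most negative were Pex5l (-0.83), Igfbp5 (-0.79), S100a4 (-0.78), Klf5 (-0.75) and Serinc5 (-0.74). Grn, which encodes progranulin, was also higher in siPax8 (0.55 over wild type and 0.43 over siScramble) and had r = 0.88 within the arrays of either comparison. Ssx2ip and Pdia6 followed Cdkn2b over the arrays while being lower in siPax8 (-0.19 and -0.31, -0.22 and -0.38). Within the 8 arrays of a comparison r was often weaker. Against wild type it was 0.21 for Ssx2ip, -0.36 for Igfbp5 and -0.44 for Pex5l. Against siScramble it was -0.23 for Klf5, -0.40 for S100a4 and -0.41 for Serinc5. Arrays of a dye swap share RNA, and same-numbered arrays may share siPax8 RNA, so these r values are a description over fewer than 16 independent samples.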

How the data were processed

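Agilent rat arrays were hybridised with Cy3- and Cy5-labelled RNA of siPax8, wild type and siScramble PCCl3 cells. The deposited intensity values, per the file headers, were extracted with Feature Extraction 10.1.1.1 and scanned at 5 micrometre, 1 file per array. The authors also deposited a table of normalised log2 ratios, processed with limma per the labels. Its columns correlate at -0.999 to -0.992 with siPax8 over control, so it holds control over siPax8. Its medians ran from -0.000112 to 0.0068, with slopes of -1.05 to -0.947.

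Mean intensities were background corrected (normexp, offset 50), and normalised by loess within and quantiles between arrays (R 4.3.3, limma 3.58.1). Control spots and outlier flags were left out, spots of a probe and dye swaps were averaged, and 4 values a comparison were tested with lmFit and eBayes, Benjamini-Hochberg adjusted over 41012 probes, at adjusted p under 0.005. The fits were tested on simulated data. Names came through RefSeq accessions, for 10768 probes. Alternatives covered background correction, normalisation, starting values, dim probes, dye, slide, replicate block and left-out replicates.

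The labels do not say whether a replicate number marks shared material. Deviations of the siPax8 channel from its mean correlated at 0.53 to 0.74 between same-numbered samples of the comparisons and at most at 0.04 between others, counting probes whose mean log2 intensity exceeded 8. Those of the log2 ratios correlated at 0.045 to 0.57, and at up to 0.41 between other numbers, with replicate 3 closer to another number than to its own. The block is therefore given beside the unpaired fit, and was judged after the fits had been run. For the difference, it is a fit of the paired differences of same-numbered replicates. Within a comparison, it is another model, a fit of the 8 single arrays with the replicate number as a random block. That model has no dye term and does not average the dye swaps.

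The members and lists were chosen with earlier results of these data known. Named were all member probes, genes called on all probes in both comparisons, the 2 called genes with the largest ratio per list and comparison, the 5 genes most like and most unlike Cdkn2b, and Pax8. The number of arrays limits the precision. Some genes of the lists are counted but not reported here by name.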

Additional observations from a re-analysis of the deposited data

Results flagged for a closer look

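In 3 of 64 sets of 4 replicates among the named probes, 1 replicate stood far from the others by Dixon's criterion, and chance gives about 1 in 20. Cdkn2b over wild type was 0.96 in replicate 2 and 0.68 to 0.72 in the others. Cdkn2a over siScramble was 0.16 in replicate 1 and 0.06 to 0.07 in the others, on a probe near background. The Ccnb1 probe A_44_P534089 over siScramble was -0.26 in replicate 2 and -0.35 to -0.34 in the others.

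For 3 genes named by rule in the pathway lists, the value over wild type differed from that over siScramble by limma's test of the difference, with adjusted p = 5.47e-06 for Gadd45a (0.76), 0.000821 for Tgfb2 (0.59) and 0.00361 for Zmat3 (-0.41). No member differed in that test without the paired block.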

How the results depend on the processing

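Over 17 alternatives, 486 of 522 values of the member probes kept their side of the threshold, 33 of them with another sign but called under neither setting. In 29 a call was lost and in 7 a call was gained, and no call of a member reversed. Cdkn2b over wild type was called under all 18 settings (0.71 to 0.91) and over siScramble under 9 of 18 (0.39 to 0.54). Fits of single arrays, in which dye swaps of a replicate count as separate values, are among the 18 settings. The cause of these changes was not tested.

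Member probes called over wild type numbered 5 in the main processing, 3 with a normexp offset of 10, 1 from Agilent's processed intensities, 3 with siPax8 in Cy3 alone and 2 to 5 with a replicate left out (3 without replicate 2 and 2 without replicate 4). Over siScramble the 1 call became 0 with loess alone or Aquantile (which leave ratios alike), from Agilent's intensities, from the authors' table, with siPax8 in Cy5 alone and without any 1 replicate (0 to 0), and 2 in Cy3 alone. Calls were lost for Cdkn2b over siScramble with loess alone or Aquantile (0.47, adjusted p = 0.00887), from Agilent's intensities (0.54), the authors' table (0.44) and Cy5 alone (0.41), and on leaving out replicates (0.39 to 0.50). Over wild type, Cdkn1a A_44_P515275 lost its call with loess alone or Aquantile (-0.15), offset 10 (-0.18), Agilent's intensities (-0.24), Cy5 alone (-0.0063), the replicate block (-0.16, adjusted p = 0.0223) and without replicates 2, 3 or 4, but kept it without replicate 1 (-0.17 to -0.14 over the 4). Cdkn1a A_44_P914438 lost it with Agilent's intensities (-0.45) and Cy3 alone (-0.47). Cdkn2c lost it with offset 10 (-0.21), Agilent's intensities (-0.21), Cy3 alone (-0.17) and without replicates 2, 3 or 4, but kept it without replicate 1 (-0.23 to -0.18 over the 4). Cdkn1b A_44_P508264 lost it with Agilent's intensities (0.53), both comparisons in 1 fit (0.53) and without replicate 4, but kept it without replicates 1, 2 or 3 (0.46 to 0.61 over the 4). Calls were gained by Cdkn1b A_43_P11268 over wild type in Cy5 alone (0.34), with a dye term or slide block (0.18, adjusted p = 0.00292 and 0.00155) and without replicate 3, but not without the others (0.15 to 0.24 over the 4), and by Cdkn1a A_44_P515275 over siScramble in Cy3 alone (-0.23). The dye term and slide fits count the dye swaps of a replicate as separate values, so their adjusted p values overstate the number of independent samples. With the replicate block, the difference was called for 2 members, Cdkn2b (0.32) and Cdkn1a A_44_P914438 (-0.37). The block changed no other member call.

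Pathway genes called were 30 over wild type, 7 from Agilent's intensities, 19 in Cy3 alone and 15 to 33 without a replicate, the fewest without replicate 3. Over siScramble they were 6, 0 from Agilent's intensities, 1 in Cy5 alone, 16 in Cy3 alone, 20 with a dye term, 20 with slide as a block, 11 with the replicate block, 14 with both comparisons in 1 fit and 1 to 5 without a replicate (1 without replicate 2 and 3 without replicate 3). Among the pathway genes named by rule, the calls over wild type of Birc5, Tgfb3, Gadd45a and Zmat3 held under all 18 settings, and those of Ccnb1 and Ring1 under 8. The Ccnb1 probe A_44_P534089 turned to 0.017 over wild type in Cy5 alone. All probes called over wild type were 6260, 1757 from Agilent's intensities, 3492 in Cy3 alone and 3375 to 6982 without a replicate. Over siScramble they were 867, 29 from Agilent's intensities, 215 and 3585 in Cy5 and Cy3 alone, 2599 with a dye term, 2811 with slide as a block, 1704 with the replicate block, 1752 with both comparisons in 1 fit and 119 to 412 without a replicate. For the difference they were 1409, 866 with offset 10, 441 from Agilent's intensities, 787 and 597 in Cy5 and Cy3 alone, 2308 with the replicate block and 368 to 1063 without a replicate. The 2 Cdkn1c probes near background were left out by the filter on dim probes.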
